A study of Homo sapiens with 12 samples.

Results

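The genes described here carry a cell through its division cycle. They comprise regulators of G1 and inhibitors of cyclin-dependent kinases (CDKs), genes of replication licensing and DNA synthesis, and genes of G2 and mitosis. The members were a fixed list of 40 gene symbols, and every probe set annotated to them was taken. Probe sets were present for 39 of the 40, namely 9 G1 regulators, 12 replication genes and 18 mitotic genes, among 19775 genes with a symbol of their own on the array. CDKN2C was not analysed here. The 39 genes had 88 probe sets, of which 83 lay above the median of their own array on at least 2 of the 12 arrays and were tested. Each gene was read at its brightest tested probe set, and all 39 genes were among the 15053 genes tested.

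The RNA came from 3 human myeloma cell lines that stably carried green fluorescent protein (GFP), and Affymetrix U133 Plus 2.0 arrays were used. The 6 groups were INA-6 after coculture and INA-6 alone, MM.1R after coculture and MM.1R alone, and MM.1S after coculture and MM.1S alone, with 2 arrays each. In the coculture groups the myeloma cells had spent 24 hours with HS-5 cells, a stromal line of human bone marrow without GFP, and cell sorting then parted the GFP-positive cells from the stromal cells. INA-6 is a line known to depend on interleukin 6, MM.1S is sensitive to the glucocorticoid dexamethasone, and MM.1R is the dexamethasone-resistant derivative of MM.1S. The series text calls the duplicate arrays technical replicates, so p-values within a line measure the spread between arrays and not between cultures. In bulk RNA fewer cells in a cycle phase and less RNA per cell cannot be told apart.

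In G1, cyclin D with CDK4 or CDK6 and then cyclin E with CDK2 phosphorylate the retinoblastoma protein RB1, which releases E2F factors that switch on genes of DNA synthesis. The CDK inhibitors p21 (CDKN1A) and p27 (CDKN1B) hold this step back. CDC6 and CDT1 load the MCM helicase on replication origins, and cyclin B with CDK1 then drives mitosis together with Polo and Aurora kinases. Myeloma is a cancer of plasma cells, which normally no longer divide.

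Genes of the cycle share known promoter elements, and the promoters of 4 members on whose values the results turn are shown with their matches. RefSeq promoters on GRCh38.p14, each running from 250 bases before to 50 bases after the annotated start, were matched to 31 of the 39 genes. They were searched on both strands for an E2F-type element (the letters TTCCCGC, the letters TTGGCGC, the letters TTCGCGC or the letters TTGCCGC), a CHR-type element (the letters TTTGAA or the letters TTCGAA) and a CCAAT box (CCAAT). A match to TTGGCGC overlaps a CCAAT box on the other strand where an A stands before it. Capitals mark the matches in the sequences below, which are written 5′ to 3′ on the strand of the gene. CDKN1A lies at chr6:36678464-36678763 on the plus strand, E2F1 at chr20:33686336-33686635 on the minus strand, CDC6 at chr17:40287629-40287928 on the plus strand and PLK1 at chr16:23678639-23678938 on the plus strand.
CDKN1A: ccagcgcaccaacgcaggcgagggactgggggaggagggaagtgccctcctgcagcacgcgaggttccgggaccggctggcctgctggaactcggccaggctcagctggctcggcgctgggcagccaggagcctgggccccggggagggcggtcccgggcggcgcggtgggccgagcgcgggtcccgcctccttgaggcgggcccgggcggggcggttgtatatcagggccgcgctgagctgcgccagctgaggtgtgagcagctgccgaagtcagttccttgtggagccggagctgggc
E2F1: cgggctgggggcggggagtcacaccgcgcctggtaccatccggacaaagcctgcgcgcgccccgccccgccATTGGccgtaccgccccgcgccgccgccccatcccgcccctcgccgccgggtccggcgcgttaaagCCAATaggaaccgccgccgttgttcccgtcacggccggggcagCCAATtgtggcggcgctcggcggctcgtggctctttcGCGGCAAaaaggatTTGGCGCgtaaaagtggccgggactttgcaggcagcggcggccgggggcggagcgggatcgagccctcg
CDC6: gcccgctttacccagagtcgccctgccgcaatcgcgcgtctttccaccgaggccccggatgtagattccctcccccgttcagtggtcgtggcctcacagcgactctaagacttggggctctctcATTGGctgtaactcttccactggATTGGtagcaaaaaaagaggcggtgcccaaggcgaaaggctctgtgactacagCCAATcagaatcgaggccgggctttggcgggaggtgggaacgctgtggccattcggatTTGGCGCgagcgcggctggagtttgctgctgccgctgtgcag
PLK1: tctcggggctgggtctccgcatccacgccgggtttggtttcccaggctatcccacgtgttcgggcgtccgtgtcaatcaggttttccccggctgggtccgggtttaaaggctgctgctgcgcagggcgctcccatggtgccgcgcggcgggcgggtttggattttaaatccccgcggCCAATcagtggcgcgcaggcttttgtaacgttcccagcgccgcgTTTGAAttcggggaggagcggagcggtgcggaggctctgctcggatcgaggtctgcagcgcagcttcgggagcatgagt

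The CDKN1A window held none of these letters. The E2F1 window held 2 E2F-type matches and 3 CCAAT boxes, the CDC6 window 1 E2F-type match and 3 CCAAT boxes, and the PLK1 window 1 CHR-type match and 1 CCAAT box. By class, an E2F-type match was present in 9 of 10 replication promoters, 2 of 14 mitotic promoters and 1 of 7 G1 promoters, against 13.1% of 27305 promoters. A CHR-type match was present in 10 of 14 mitotic, 2 of 10 replication and 0 of 7 G1 promoters, against 16.6% of all. The CCAAT box was present in 12 of 14 mitotic, 7 of 10 replication and 2 of 7 G1 promoters, against 35.7% of all. These matches describe letters in a window and not bound sites. CDK2, CCNE2, MCM4, MCM5, FOXM1, AURKA, BIRC5 and TPX2 had no matched entry.

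The arrays had medians between 19.8 and 24.1 on the deposited intensity scale. Values were taken to log2 after adding 5, and changes are given on that scale, which understates the change of dim genes. Duplicates correlated with r between 0.946 and 0.986 over 15053 genes, except in INA-6 alone, where r was 0.839. For the members the mean absolute difference between duplicates was 0.748 (log2) in INA-6 alone, with the replicate 2 array higher in 6 of 39, against 0.069 to 0.137 in the other groups. The 3′ over 5′ signal ratio of ACTB, a sign of transcript shortening, was 32.4 and 31.7 in INA-6 after coculture, against 5.72 and 5.31 in INA-6 alone. It ran the other way in MM.1R (5.01 and 5.41 after coculture, against 30.6 and 32.2 alone) and in MM.1S (5.24 and 4.97 after coculture, against 22.7 and 22.0 alone). Of 13 plasma cell markers, 11 or 12 lay above the array median in every group. Stromal cell markers also moved with coculture. The summed intensity of 35 measured stromal markers was 21940 and 21800 in INA-6 after coculture, against 2716 and 4380 in INA-6 alone. It was 42430 and 41870 in MM.1R after coculture, against 2229 and 2298 alone, and 24140 and 23690 in MM.1S after coculture, against 2070 and 2110 alone. Between 27 and 29 of the 35 lay above the array median after coculture, against 14 to 17 in cells alone, and none stood at 1, the lowest value of the scale. The part of stromal RNA and of transcript shortening in the results below was not tested.

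Over the 3 lines together, no member passed the test, while 33 of the 39 had a mean change above 0, against 62.1% of all genes. CDKN1A, the p21 inhibitor of CDKs, had the largest positive value, 2.60 ± 0.59 (log2, SE, n = 3 lines, adjusted p = 0.0604), and CDC6, a loader of the MCM helicase, the lowest, -2.03 ± 0.52 (adjusted p = 0.0852). PLK1, the Polo kinase of mitotic entry, stood at 1.88 ± 0.45 (adjusted p = 0.069). In this fit the duplicates were averaged and the lines served as replicates, which leaves 2 residual degrees of freedom. Of all 15053 genes 3.39% were called (3.28% higher, 0.106% lower), and 0 of 39 members were called with limma. At an unadjusted p under 0.05 there were 10 members, 9 higher and 1 lower. The median change was 0.667 for the members and 0.265 for all genes. It was 0.939 for the G1 regulators, 0.402 for the replication genes and 0.588 for the mitotic genes. After quantile normalization the median of all genes fell to 0.018 and that of the members to 0.331, with 29 of 39 above 0. CDKN1A was the member that came under the threshold when single arrays were left out, namely either array of MM.1S alone or of MM.1R alone, replicate 2 of MM.1S coculture or replicate 1 of MM.1R coculture (adjusted p = 0.0353 to 0.0492).

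Within the lines the duplicates give the error, and the share of genes called was large. In INA-6, 52.2% of all genes were called (39.1% higher, 13.1% lower), and 26 of 39 members were called, 23 higher and 3 lower. In MM.1R, 16.1% of all genes were called (13.3% higher, 2.76% lower) and 7 members, namely CDK4, CDKN1A, RRM2, PLK1 and TPX2 higher and CDC6 and CDC20 lower. In MM.1S, 32.3% of all genes were called (23.9% higher, 8.33% lower) and 18 members, 16 higher and 2 lower. CDKN1A, PLK1 and TPX2 were called higher in all 3 lines and CDC6 lower in all 3, which makes 4 of 39 members, against 8.08% of all genes called with the same sign in all 3 lines (7.29% higher, 0.797% lower). The median change of the members was 1.08 in INA-6, 0.323 in MM.1R and 0.349 in MM.1S, against 0.469, 0.093 and 0.109 for all genes. After quantile normalization the calls were 19 higher and 4 lower in INA-6, 5 higher and 8 lower in MM.1R, and 13 higher and 8 lower in MM.1S. Of all 15053 genes 7378 were then called in INA-6, 2455 in MM.1R and 4918 in MM.1S. The median change of all genes was then 0.166 in INA-6, -0.071 in MM.1R and -0.06 in MM.1S. The shares of all genes by direction under this scaling are not given here. No member called in a line changed its sign there under quantile normalization or median centring. The counts also depended on single arrays. Without either INA-6 alone array 26 members were called in MM.1R and 29 in MM.1S, and the calls over all 15053 genes also went up, to 5501 in MM.1R (2417 with all arrays) and 7897 in MM.1S (4858 with all arrays). The MM.1R count was 2 without replicate 1 of MM.1R coculture and 4 without any other MM.1R array. The MM.1S count was 11 without either MM.1S coculture array and 12 without replicate 1 of MM.1S alone.

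**Figure D1:**
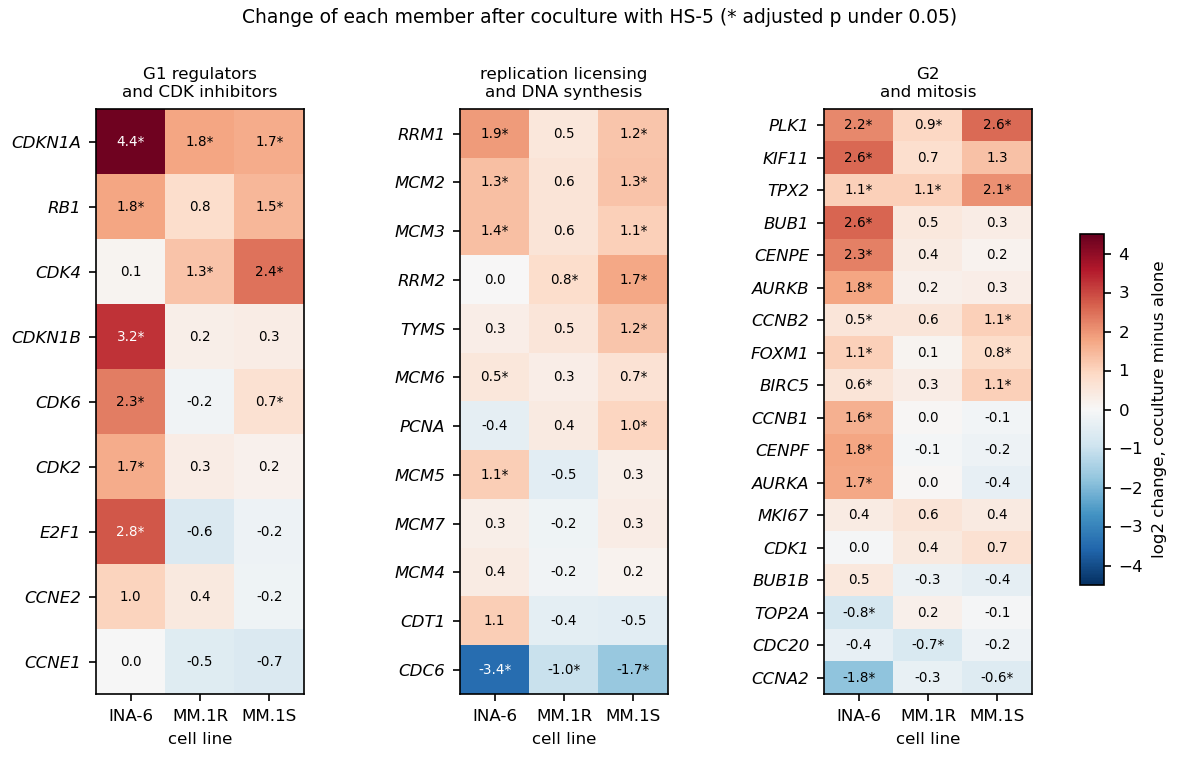
Log2 change (coculture minus alone) of the 39 measured members in INA-6, MM.1R and MM.1S, by class, with genes ordered by their mean change. Red is higher and blue is lower after coculture, the number in each cell is the change, and a star marks an adjusted p under 0.05. CDKN1A, PLK1 and TPX2 carry a star with a positive value in all 3 lines and CDC6 with a negative one; small values without a star, such as CDKN1B in MM.1R and MM.1S, turned negative after quantile normalization.

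Of the 9 measured G1 members 6 were higher and 0 lower in INA-6 (median 1.78, all genes 0.469), where 39.1% of all genes were higher. In MM.1R 2 were higher, against 13.3% of all genes, and in MM.1S 4, against 23.9%, and 0 were lower in either line. CDKN1A, which halts the cycle by binding cyclin-CDK complexes and is a target of p53, rose in each line. CDKN1A read 497 and 587 in INA-6 after coculture, against 17.4 and 26.3 in INA-6 alone. MM.1R had 1668 and 1561 after coculture, against 508 and 439 alone. MM.1S had 1219 and 1188 after coculture, against 362 and 381 alone. No coculture array overlapped an alone array of its line, and INA-6 alone was near the array median. The changes were 4.36 ± 0.20 in INA-6 (adjusted p = 6.63e-06), 1.76 ± 0.20 in MM.1R (adjusted p = 0.000743) and 1.68 ± 0.20 in MM.1S (adjusted p = 0.000433) (log2, SE, n = 2 arrays per group).

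CDKN1B encodes p27, the CDK inhibitor that holds cyclin E and CDK2 in resting cells. CDKN1B read 643 and 626 in INA-6 after coculture, against 69.9 and 56.0 in INA-6 alone. MM.1R had 1559 and 1794 after coculture, against 1318 and 1500.0 alone. MM.1S had 1600.0 and 1564 after coculture, against 1289 and 1220.0 alone. The INA-6 alone arrays stood far below every other array. CDKN1B rose in INA-6 by 3.24 ± 0.17 (SE, adjusted p = 7.82e-06). The differences in MM.1R (0.25, adjusted p = 0.421) and MM.1S (0.33, adjusted p = 0.174) did not pass, and their sign flipped to -0.07 and -0.13 under quantile normalization.

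RB1 restrains E2F factors until it is phosphorylated. RB1 read 453 and 462 in INA-6 after coculture, against 209 and 79.8 in INA-6 alone. MM.1R had 386 and 372 after coculture, against 229 and 203 alone. MM.1S had 391 and 432 after coculture, against 104 and 189.9 alone. The coculture arrays lay above the alone arrays in each line, but the duplicates of INA-6 alone and of MM.1S alone stood far apart. RB1 had changes of 1.78 ± 0.42 in INA-6 (adjusted p = 0.0083), 0.80 ± 0.42 in MM.1R (adjusted p = 0.283) and 1.51 ± 0.42 in MM.1S (adjusted p = 0.0263). The MM.1S call was lost without replicate 1 of MM.1S alone (adjusted p = 0.156) or either MM.1S coculture array (adjusted p = 0.0944 and 0.122), and the INA-6 call under quantile normalization (adjusted p = 0.0516). Its other probe set stood at -0.996 in INA-6, -0.68 in MM.1R and 0.08 in MM.1S.

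CDK4 is the kinase partner of the D cyclins in early G1. CDK4 read 668 and 628 in INA-6 after coculture, against 704 and 511 in INA-6 alone. MM.1R had 974 and 988 after coculture, against 399.9 and 394 alone. MM.1S had 886 and 882 after coculture, against 161 and 155 alone. The MM.1R and MM.1S groups separated clearly, whereas the INA-6 coculture values lay between the duplicates of INA-6 alone. CDK4 rose by 1.29 ± 0.18 in MM.1R (SE, adjusted p = 0.00196) and by 2.45 ± 0.18 in MM.1S (adjusted p = 5.0e-05). In INA-6 the difference was 0.11 ± 0.18 (adjusted p = 0.63) and turned to -0.28 under quantile normalization.

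E2F1 encodes the activating factor whose targets include many replication genes. E2F1 read 199.5 and 206 in INA-6 after coculture, against 44.1 and 12.8 in INA-6 alone. MM.1R had 321 and 303 after coculture, against 519 and 466 alone. MM.1S had 342 and 324 after coculture, against 371 and 417 alone. INA-6 alone was again the low group, with its replicate 2 array below the array median, and the MM.1 lines kept at least 303 units in both conditions. E2F1 rose in INA-6 by 2.81 ± 0.39 (SE, adjusted p = 0.000636), while MM.1R (-0.65 ± 0.39, adjusted p = 0.365) and MM.1S (-0.24 ± 0.39, adjusted p = 0.701) did not pass. E2F1 in MM.1R passed as lower without either INA-6 alone array (adjusted p = 0.00278) and without INA-6 (adjusted p = 0.00753). Its other probe set showed 0.05 in INA-6 (adjusted p over all probe sets = 0.889).

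The other G1 members followed no common course. CDK6, the second partner of the D cyclins, had changes of 2.29 in INA-6, -0.17 in MM.1R and 0.70 in MM.1S. At this probe set it was called in INA-6 and MM.1S. Another bright CDK6 probe set had 0.25 in INA-6, 1.13 in MM.1R and 1.75 in MM.1S. It passed in MM.1R and MM.1S (adjusted p over all probe sets = 0.00306 and 0.000175) but not in INA-6 (0.247). Over its 7 tested probe sets the changes ran from -1.35 to 2.29 in INA-6, -0.67 to 1.13 in MM.1R and -1.05 to 1.75 in MM.1S. CDK2, the cyclin E kinase, had 1.67 in INA-6, 0.35 in MM.1R and 0.19 in MM.1S and was called in INA-6. CCNE1 and CCNE2, the E cyclins that activate CDK2, were called in no line, with changes of -0.03 in INA-6, -0.53 in MM.1R and -0.65 in MM.1S for CCNE1 and 0.99 in INA-6, 0.44 in MM.1R and -0.20 in MM.1S for CCNE2.

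**Figure D2:**
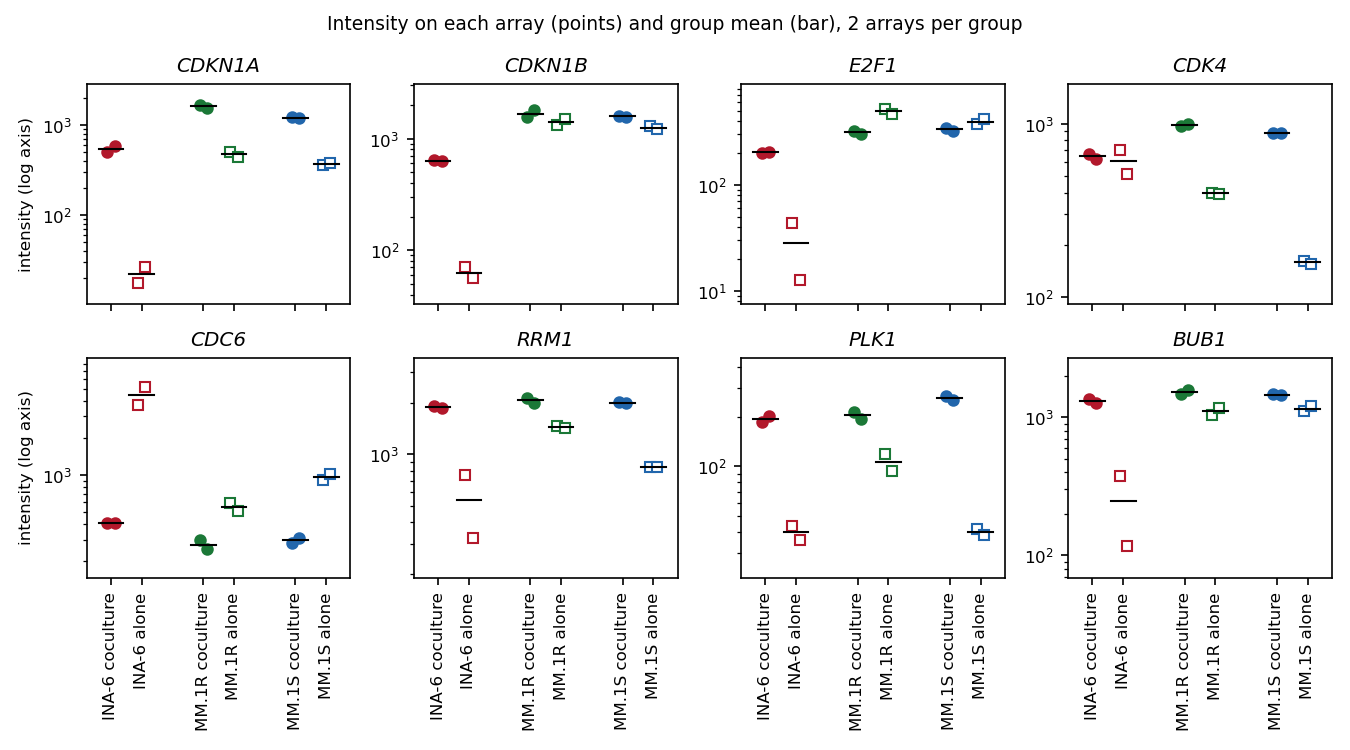
Deposited intensity (log axis) of 8 members on each of the 12 arrays, with coculture as filled circles, cells alone as open squares and the mean of the 2 arrays as a bar. In CDKN1A, CDKN1B, E2F1, RRM1, PLK1 and BUB1 the INA-6 alone arrays are among the lowest points, whereas for CDC6 they are the highest (3701 and 5225).

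In the replication class 7 of 12 genes were higher in MM.1S and 1 lower, 5 were higher in INA-6 and 1 lower, and 1 was higher and 1 lower in MM.1R. Of all genes 23.9% were higher in MM.1S, 39.1% in INA-6 and 13.3% in MM.1R, so the INA-6 and MM.1R counts lay near the shares of all genes. The class median was 0.433 in INA-6, 0.352 in MM.1R and 0.81 in MM.1S, against 0.469, 0.093 and 0.109 for all genes. CDC6, which recruits the MCM helicase to origins together with CDT1, was the gene called lower in each line. CDC6 read 410.1 and 407 in INA-6 after coculture, against 3701 and 5225 in INA-6 alone. MM.1R had 296 and 250.1 after coculture, against 593 and 507 alone. MM.1S had 283 and 312 after coculture, against 919.8 and 1020.0 alone. The alone arrays lay above the coculture arrays in all 3 lines, and the INA-6 alone arrays were the highest of the 12. CDC6 fell with changes of -3.41 ± 0.20 in INA-6 (adjusted p = 1.26e-05), -0.998 ± 0.20 in MM.1R (adjusted p = 0.0134) and -1.69 ± 0.20 in MM.1S (adjusted p = 0.000508) (log2, SE). The MM.1R call was lost when any of the 4 MM.1R arrays was left out (adjusted p = 0.0528 to 0.102). The other CDC6 probe set went the other way, with 0.77 in INA-6, 0.41 in MM.1R and 1.09 in MM.1S (adjusted p over all probe sets = 0.00583, 0.159 and 0.00181). The mean of both probe sets was -0.30 in MM.1S and -0.29 in MM.1R, and did not pass in either line.

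CDT1 is the licensing partner of CDC6. CDT1 read 696 and 643 in INA-6 after coculture, against 582 and 161 in INA-6 alone. MM.1R had 285 and 298 after coculture, against 384 and 406 alone. MM.1S had 320.3 and 315 after coculture, against 452 and 431 alone. The duplicates of INA-6 alone stood on either side of a wide gap, and the coculture arrays lay below the alone arrays in both MM.1 lines. None of the changes passed, at 1.11 ± 0.48 in INA-6 (adjusted p = 0.0837), -0.43 ± 0.48 in MM.1R (adjusted p = 0.673) and -0.47 ± 0.48 in MM.1S (adjusted p = 0.516). CDT1 in INA-6 was 2.03 without replicate 1 of INA-6 alone and did not pass without replicate 2, so its value turns on which array of that group is kept. In such a fit the lone array is assumed to vary like the other groups. The MM.1 values passed without either INA-6 alone array (adjusted p = 0.00695 in MM.1R and 0.00311 in MM.1S). The other CDT1 probe set was higher in each line, with 2.62 in INA-6, 1.69 in MM.1R and 3.08 in MM.1S, all under the threshold (adjusted p over all probe sets = 0.000451, 0.0136 and 0.000376).

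RRM1 encodes the large subunit of ribonucleotide reductase, which makes the building blocks of DNA. RRM1 read 1913 and 1870.0 in INA-6 after coculture, against 753 and 322 in INA-6 alone. MM.1R had 2135 and 1998 after coculture, against 1469 and 1419 alone. MM.1S had 2002 and 1998 after coculture, against 845 and 845 alone. The coculture groups of all 3 lines lay close together, whereas the alone groups were spread out. RRM1 had changes of 1.93 ± 0.33 in INA-6 (adjusted p = 0.0018), 0.52 ± 0.33 in MM.1R (adjusted p = 0.399) and 1.24 ± 0.33 in MM.1S (adjusted p = 0.0226). The MM.1S call was lost when any of the 4 MM.1S arrays was left out (adjusted p = 0.0837 to 0.0993), and the MM.1R value passed without either INA-6 alone array (adjusted p = 0.00226). The other RRM1 probe set had -1.11 in INA-6, 1.27 in MM.1R and 1.88 in MM.1S (adjusted p over all probe sets = 0.00943, 0.016 and 0.0012), and the mean of both did not pass in INA-6 (0.41, adjusted p = 0.168).

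MCM2 to MCM7 are the 6 subunits of the replicative helicase. MCM2 read 954 and 903 in INA-6 after coculture, against 447 and 294 in INA-6 alone. MM.1R had 1277 and 1154 after coculture, against 793 and 817 alone. MM.1S had 1146 and 1209 after coculture, against 490.0 and 470.4 alone. Every coculture array stood above the alone arrays of its line. MCM2 had changes of 1.34 ± 0.20 in INA-6 (adjusted p = 0.000984), 0.59 ± 0.20 in MM.1R (adjusted p = 0.0977) and 1.28 ± 0.20 in MM.1S (adjusted p = 0.00201), and the MM.1R value passed without either INA-6 alone array (adjusted p = 0.00244). MCM5 read 977 and 987 in INA-6 after coculture, against 621 and 332 in INA-6 alone. MM.1R had 1286 and 1203 after coculture, against 1786 and 1717 alone. MM.1S had 1390.0 and 1294 after coculture, against 1144 and 1090.0 alone. The coculture arrays lay above the alone arrays in INA-6 and MM.1S and below them in MM.1R. Its changes were 1.10 ± 0.26 in INA-6 (adjusted p = 0.00873), -0.49 ± 0.26 in MM.1R (adjusted p = 0.292) and 0.26 ± 0.26 in MM.1S (adjusted p = 0.505). The MM.1S value turned to -0.14 under quantile normalization, and without either INA-6 alone array the MM.1R value (adjusted p = 0.00411) and the MM.1S value (adjusted p = 0.0342) passed. Its other probe set had 2.34 in INA-6, -0.09 in MM.1R and 2.14 in MM.1S (adjusted p over all probe sets = 0.000801, 0.922 and 0.00219), and the mean of both passed in MM.1S at 1.20 (adjusted p = 0.0152).

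Among the remaining helicase subunits MCM3 (1.36 in INA-6, 0.59 in MM.1R and 1.08 in MM.1S) and MCM6 (0.50 in INA-6, 0.31 in MM.1R and 0.65 in MM.1S) were called higher in INA-6 and MM.1S. MCM4 and MCM7 were called in no line at their brightest probe sets, with changes between -0.18 and 0.37. The other MCM7 probe set had 0.75 in INA-6, 0.44 in MM.1R and 0.79 in MM.1S (adjusted p over all probe sets = 0.0197, 0.245 and 0.0244). A dimmer MCM4 probe set was called lower in each line, with -3.24 in INA-6, -1.43 in MM.1R and -2.08 in MM.1S. Another was called higher in INA-6 (1.97) and MM.1S (2.16), and a further probe set in MM.1S (2.24). RRM2, the small subunit of ribonucleotide reductase, read 4468 and 4357 in MM.1R after coculture, against 2500.0 and 2551 alone, and 4266 and 4258 in MM.1S after coculture, against 1304 and 1243 alone. It rose by 0.80 ± 0.14 in MM.1R (SE, adjusted p = 0.00542) and 1.74 ± 0.14 in MM.1S (adjusted p = 6.71e-05), and was 0.01 ± 0.14 in INA-6 (adjusted p = 0.952). TYMS, which makes thymidylate, had 0.28 in INA-6, 0.55 in MM.1R and 1.24 in MM.1S, and PCNA, the sliding clamp of the polymerases, had -0.41 in INA-6, 0.40 in MM.1R and 0.97 in MM.1S, and both were called higher in MM.1S. MCM6 lost its MM.1S call under quantile normalization.

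In the G2 and mitosis class 12 of 18 genes were higher in INA-6 and 2 lower, 2 were higher in MM.1R and 1 lower, and 5 were higher in MM.1S and 1 lower. The shares of all genes called higher were 39.1% in INA-6, 13.3% in MM.1R and 23.9% in MM.1S, which the MM.1R and MM.1S counts lay near. Under quantile normalization the counts were 8 higher and 2 lower in INA-6, 2 higher and 3 lower in MM.1R, and 4 higher and 5 lower in MM.1S. Of all 15053 genes 7378, 2455 and 4918 were called under that scaling in these lines, in the same order, with no split by direction given here. PLK1, which triggers mitotic entry and spindle assembly, rose in each line. PLK1 read 187 and 202 in INA-6 after coculture, against 43.6 and 35.9 in INA-6 alone. MM.1R had 214 and 194 after coculture, against 119 and 93.2 alone. MM.1S had 266 and 253 after coculture, against 41.7 and 38.4 alone. The coculture arrays of the 3 lines spanned 187 to 266, and MM.1R alone stood above the other alone groups. PLK1 had changes of 2.16 ± 0.18 in INA-6 (adjusted p = 4.45e-05), 0.92 ± 0.18 in MM.1R (adjusted p = 0.00982) and 2.56 ± 0.18 in MM.1S (adjusted p = 4.45e-05) (log2, SE). The MM.1R call was lost without replicate 2 of MM.1R alone (adjusted p = 0.0887) or replicate 1 of MM.1R coculture (adjusted p = 0.0854).

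TPX2 activates Aurora A at the spindle. TPX2 read 457 and 434 in INA-6 after coculture, against 231 and 190.4 in INA-6 alone. MM.1R had 803 and 752 after coculture, against 345 and 398 alone. MM.1S had 754 and 729 after coculture, against 207 and 145 alone. Each pair of coculture arrays lay above its alone pair. TPX2 rose with changes of 1.07 ± 0.20 in INA-6 (adjusted p = 0.00291), 1.06 ± 0.20 in MM.1R (adjusted p = 0.00975) and 2.07 ± 0.20 in MM.1S (adjusted p = 0.000182). The MM.1R call was lost without replicate 1 of MM.1R alone or either MM.1R coculture array (adjusted p = 0.0551 to 0.0781), and the INA-6 call under quantile normalization (0.31, adjusted p = 0.197).

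KIF11 is the motor protein that pushes spindle poles apart. KIF11 read 303 and 299 in INA-6 after coculture, against 114 and 17.0 in INA-6 alone. MM.1R had 606 and 649 after coculture, against 355 and 393 alone. MM.1S had 665 and 679.5 after coculture, against 247 and 282 alone. The 2 arrays of INA-6 alone differed more for KIF11 than for any other member, by 2.44 (log2). Its changes were 2.58 ± 0.63 in INA-6 (adjusted p = 0.00962), 0.74 ± 0.63 in MM.1R (adjusted p = 0.552) and 1.33 ± 0.63 in MM.1S (adjusted p = 0.15). With this spread removed, that is without either INA-6 alone array, KIF11 also passed in MM.1R (adjusted p = 0.00163) and MM.1S (adjusted p = 6.04e-05). The INA-6 call was lost under quantile normalization (adjusted p = 0.0579).

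BUB1 and CENPE act at the kinetochore, BUB1 as a checkpoint kinase and CENPE as a motor. BUB1 read 1350.0 and 1262 in INA-6 after coculture, against 377 and 117 in INA-6 alone. MM.1R had 1473 and 1573 after coculture, against 1040.0 and 1161 alone. MM.1S had 1467 and 1452 after coculture, against 1102 and 1206 alone. INA-6 alone was the low group, with a wide gap between its duplicates. BUB1 had changes of 2.60 ± 0.44 in INA-6 (adjusted p = 0.00159), 0.47 ± 0.44 in MM.1R (adjusted p = 0.599) and 0.34 ± 0.44 in MM.1S (adjusted p = 0.615). Without either INA-6 alone array BUB1 also passed in MM.1R (adjusted p = 0.00963) and MM.1S (adjusted p = 0.024), although the MM.1S value turned to -0.09 under quantile normalization. CENPE read 289.7 and 315 in INA-6 after coculture, against 44.7 and 77.5 in INA-6 alone. MM.1R had 496 and 419.7 after coculture, against 389 and 318 alone. MM.1S had 469 and 443 after coculture, against 359 and 452 alone. In INA-6 the CENPE arrays did not overlap, and in MM.1S they did. CENPE rose in INA-6 by 2.26 ± 0.26 (SE, adjusted p = 0.000235) and had 0.37 ± 0.26 in MM.1R (adjusted p = 0.443) and 0.17 ± 0.26 in MM.1S (adjusted p = 0.666), the last of which turned to -0.10 under quantile normalization.

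The mitotic cyclins went in different directions in INA-6. CCNA2, the cyclin of S phase and G2, had -1.81 in INA-6, -0.34 in MM.1R and -0.59 in MM.1S and was called lower in INA-6 and MM.1S. Its other probe set had -0.34 in INA-6, 0.93 in MM.1R and 1.33 in MM.1S (adjusted p over all probe sets = 0.404, 0.0943 and 0.014), which in MM.1S is a call of the opposite sign. CCNB1 and CCNB2 are the partners of CDK1 at mitotic entry. CCNB1 had 1.60 in INA-6, 0.04 in MM.1R and -0.11 in MM.1S and was called in INA-6, and CCNB2 had 0.55 in INA-6, 0.55 in MM.1R and 1.06 in MM.1S and was called in INA-6 and MM.1S. CDK1 itself, with -0.04 in INA-6, 0.45 in MM.1R and 0.69 in MM.1S, was called in no line at its brightest probe set. Its 3 other tested probe sets passed in MM.1S, with 1.28, 1.03 and 2.28 (adjusted p over all probe sets = 0.000762, 0.00459 and 0.0193), and 1 of them in MM.1R (0.73, adjusted p over all probe sets = 0.0221). CDC20, the activator of the anaphase-promoting complex that destroys these cyclins, had -0.36 in INA-6, -0.70 in MM.1R and -0.22 in MM.1S and was called lower in MM.1R.

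The mitotic kinases AURKA (1.73 in INA-6, 0.05 in MM.1R and -0.38 in MM.1S) and AURKB (1.76 in INA-6, 0.22 in MM.1R and 0.29 in MM.1S) were called higher in INA-6. Over the 3 tested AURKA probe sets the changes ran from 1.258 to 1.86 in INA-6, 0.047 to 1.185 in MM.1R and -0.38 to 2.402 in MM.1S. The other AURKB probe set had 1.99 in INA-6, -1.21 in MM.1R and -1.08 in MM.1S (adjusted p over all probe sets = 0.000253, 0.0111 and 0.0091). FOXM1, the transcription factor of G2 and mitotic genes, had 1.08 in INA-6, 0.13 in MM.1R and 0.82 in MM.1S and was called higher in INA-6 and MM.1S, both calls being lost under quantile normalization. BIRC5, or survivin, a subunit of the chromosomal passenger complex, had 0.59 in INA-6, 0.32 in MM.1R and 1.08 in MM.1S and was called higher in INA-6 and MM.1S. Another BIRC5 probe set had -0.67 in INA-6, 1.30 in MM.1R and 2.78 in MM.1S (adjusted p over all probe sets = 0.0193, 0.0032 and 6.0e-05), which in INA-6 is a call of the opposite sign. CENPF, a kinetochore protein, had 1.79 in INA-6, -0.08 in MM.1R and -0.21 in MM.1S and was called in INA-6. BUB1B, a checkpoint protein, was called in no line, with 0.47 in INA-6, -0.26 in MM.1R and -0.41 in MM.1S. MKI67, the proliferation marker Ki-67, was called in no line at its brightest probe set (0.39 in INA-6, 0.57 in MM.1R and 0.42 in MM.1S). Of its other probe sets, 1 had 2.17 in INA-6, -0.82 in MM.1R and 0.40 in MM.1S (adjusted p over all probe sets = 0.0001, 0.0345 and 0.206), and another passed in INA-6 with 1.19 (adjusted p over all probe sets = 0.0319). TOP2A, the topoisomerase that untangles sister chromatids, had -0.79 in INA-6, 0.21 in MM.1R and -0.05 in MM.1S and was called lower in INA-6.

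The effect of coculture differed between INA-6 and the mean of the MM.1 lines for 18 of 39 members, 12 with a higher and 6 with a lower value in INA-6, against 39.2% of all genes (24.9% higher, 14.2% lower). Of the G1 regulators 3 stood at the head of the positive side, E2F1 at 3.25 ± 0.48 (log2, SE, adjusted p = 0.00144), CDKN1B at 2.95 ± 0.20 (adjusted p = 7.02e-05) and CDKN1A at 2.64 ± 0.24 (adjusted p = 0.000182). BUB1 at 2.20 ± 0.54 (adjusted p = 0.0135) and CENPE at 1.99 ± 0.32 (adjusted p = 0.00203) followed from the mitotic class. MCM5 was at 1.22 ± 0.32 (adjusted p = 0.019). On the negative side stood CDC6 at -2.07 ± 0.25 (adjusted p = 0.000577), CDK4 at -1.76 ± 0.22 (adjusted p = 0.000607), CCNA2 at -1.35 ± 0.20 (adjusted p = 0.00141), RRM2 at -1.26 ± 0.17 (adjusted p = 0.000818), PCNA at -1.10 ± 0.21 (adjusted p = 0.0048) and TOP2A at -0.87 ± 0.19 (adjusted p = 0.00782). CDK6, CENPF, CCNB1, AURKB, CDK2 and BUB1B made up the rest of the positive calls, with values between 0.81 and 2.03. Another bright CDK6 probe set had -1.19 (adjusted p over all probe sets = 0.00242), a call of the opposite sign, and a dim one 2.365 (0.004965). The other probe set of CDC6 gave 0.02 for this effect and that of E2F1 gave 0.17. Neither passed (adjusted p over all probe sets = 0.947 and 0.711). BUB1 lost its call without replicate 1 of INA-6 coculture (adjusted p = 0.0525) and MCM5 without either INA-6 coculture array (adjusted p = 0.0642 and 0.0684). Without replicate 1 of INA-6 alone 31 members were called, and 9174 of all genes (5894 with all arrays). The INA-6 alone arrays read near or below the array median for CDKN1A on both and for E2F1 on 1, so the sizes and order of these values rest on dim signal.

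Cells kept alone already differed between these lines. Relative to the mean of MM.1R and MM.1S, 21 members were lower in INA-6 alone and 6 higher, against 55.6% of all genes called (21.4% higher, 34.1% lower). CDKN1B at -4.30 ± 0.14 (log2, SE, adjusted p = 5.06e-07), CDKN1A at -3.999 ± 0.17 (adjusted p = 1.11e-06) and E2F1 at -3.91 ± 0.34 (adjusted p = 3.36e-05) had the lowest values, followed by KIF11 at -2.64 ± 0.54 and CENPE at -2.57 ± 0.23 (adjusted p = 0.00379 and 3.38e-05). CDC6 was higher in INA-6 alone, by 2.58 ± 0.18 (adjusted p = 9.36e-06). Its other probe set gave -0.16 and did not pass (adjusted p over all probe sets = 0.401). The other probe set of E2F1 stood at -0.92 (adjusted p over all probe sets = 0.00936). The comparison shares its INA-6 alone arrays with the change in INA-6 described above. INA-6 alone had the lowest mean of the 6 groups for 24 of 39 members (61.5%), against 40.7% of all genes, and for 7 of the 9 G1 regulators. After coculture the members of INA-6 differed from MM.1R by a median absolute log2 difference of 0.391, against 0.888 alone, and from MM.1S by 0.448, against 0.794 alone. All genes gave 0.458 after coculture, against 1.02 alone, in the comparison with MM.1R.

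MM.1R and its parent MM.1S were nearer to each other after coculture than alone. The median absolute difference of the 39 members was 0.107 (log2) after coculture, against 0.374 in cells alone, and for all genes 0.155 after coculture, against 0.392 alone. MM.1R was the higher line for 19 of 39 members after coculture, against 27 alone. Of all 15053 genes it was the higher line for 8168 after coculture, against 7612 alone. At least 2-fold apart were 0 of 39 members after coculture and 3 alone, against 2.7% and 10.7% of all genes. In cells alone 7 members were called, 6 higher and 1 lower in MM.1R, against 9.61% of all genes (7.93% higher, 1.67% lower). CDK4 (1.30 ± 0.18, adjusted p = 0.00543), PLK1 (1.29 ± 0.18, adjusted p = 0.00558), TPX2 (1.08 ± 0.20, adjusted p = 0.0154), RRM2 (0.98 ± 0.14, adjusted p = 0.00565), BIRC5 (0.81 ± 0.14, adjusted p = 0.0115) and CCNB2 (0.72 ± 0.16, adjusted p = 0.0294) were higher in MM.1R. CDC6 was lower in MM.1R (-0.81 ± 0.20, adjusted p = 0.0455), a call that 16 of 22 alternative settings did not keep. The count depended on single arrays. It fell when any array of MM.1R alone or MM.1S alone was left out and rose when either INA-6 alone array was. The calls over all genes moved the same way in each of these settings.

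The change with coculture differed between MM.1R and MM.1S for 2 members, against 2.46% of all genes (0.565% higher, 1.89% lower), and both were smaller in MM.1R. PLK1 differed by -1.64 ± 0.25 (log2, SE, adjusted p = 0.0309) and RRM2 by -0.94 ± 0.19 (adjusted p = 0.0494). The median of the replication class was -0.553 and that of all genes 0.008. Neither call was kept when any 1 of the 4 MM.1R arrays, the 4 MM.1S arrays or the 2 INA-6 coculture arrays was left out. The calls over all genes fell there too, and both went up without either INA-6 alone array. Over the settings that left out single arrays PLK1 ran between -1.80 and -1.47. This comparison holds the same alone arrays as the line difference above.

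**Figure D3:**
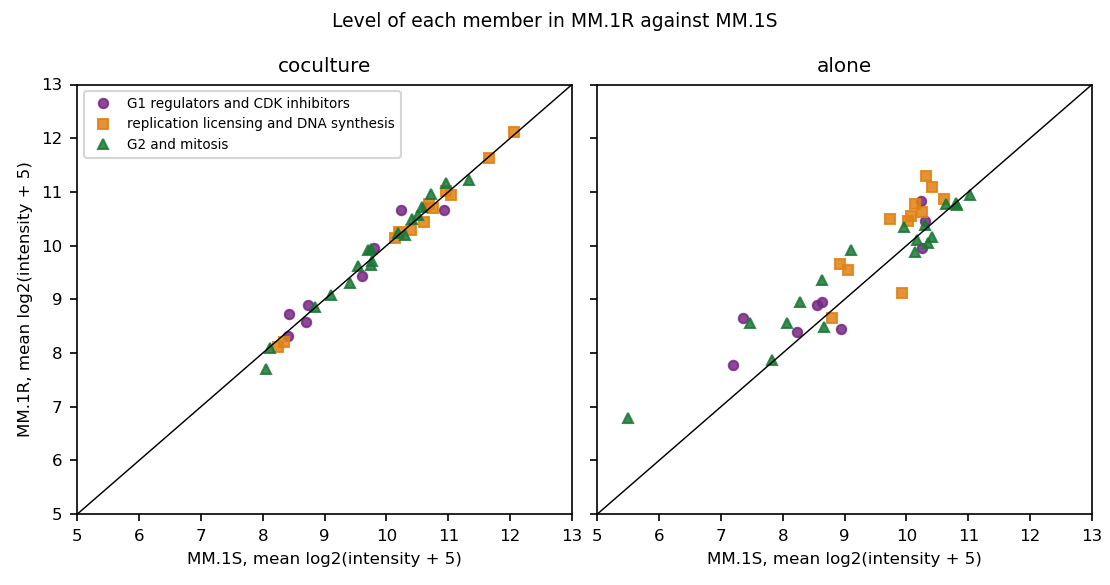
Mean log2(intensity + 5) of each of the 39 members in MM.1R (vertical axis) against MM.1S (horizontal axis), after coculture on the left and alone on the right, with the diagonal marking equal levels and the symbol marking the class. After coculture all 39 points lie within 1 log2 unit of the diagonal, and in cells alone 3 lie farther from it.

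Different probe sets of a gene often gave different answers, so each single-gene value holds for the probe set it was read at. Of 26 members with several tested probe sets, 10 had changes of both signs in INA-6, 14 in MM.1R and 16 in MM.1S. Over the 7213 genes with several tested probe sets the shares were 50.4%, 52.6% and 53.2%. At the threshold over all probe sets, CDC6 had calls of both signs in INA-6 and MM.1S, RRM1, BIRC5, TOP2A and MCM4 in INA-6, and CCNA2 and MCM4 in MM.1S. MCM4 spanned -3.24 to 1.97 in INA-6 and -2.08 to 2.24 in MM.1S over its 4 tested probe sets, while its brightest stood at 0.37 and 0.15. TOP2A had -0.79 on its brightest and 2.77 and 2.25 on its other probe sets in INA-6. BUB1 had 0.34 on its brightest and -2.52 to 0.68 on the others in MM.1S. CDKN1A, CDKN1B, CDK4, MCM2, PLK1, TPX2, KIF11 and CENPE were measured by 1 tested probe set each. When a gene was read as the mean of its probe sets, 25 members were called in INA-6, 7 in MM.1R and 17 in MM.1S, although these counts need not hold the same genes. Over all 83 probe sets 0 passed in the common test, against 1.13% of 35667 probe sets.

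**Figure D4:**
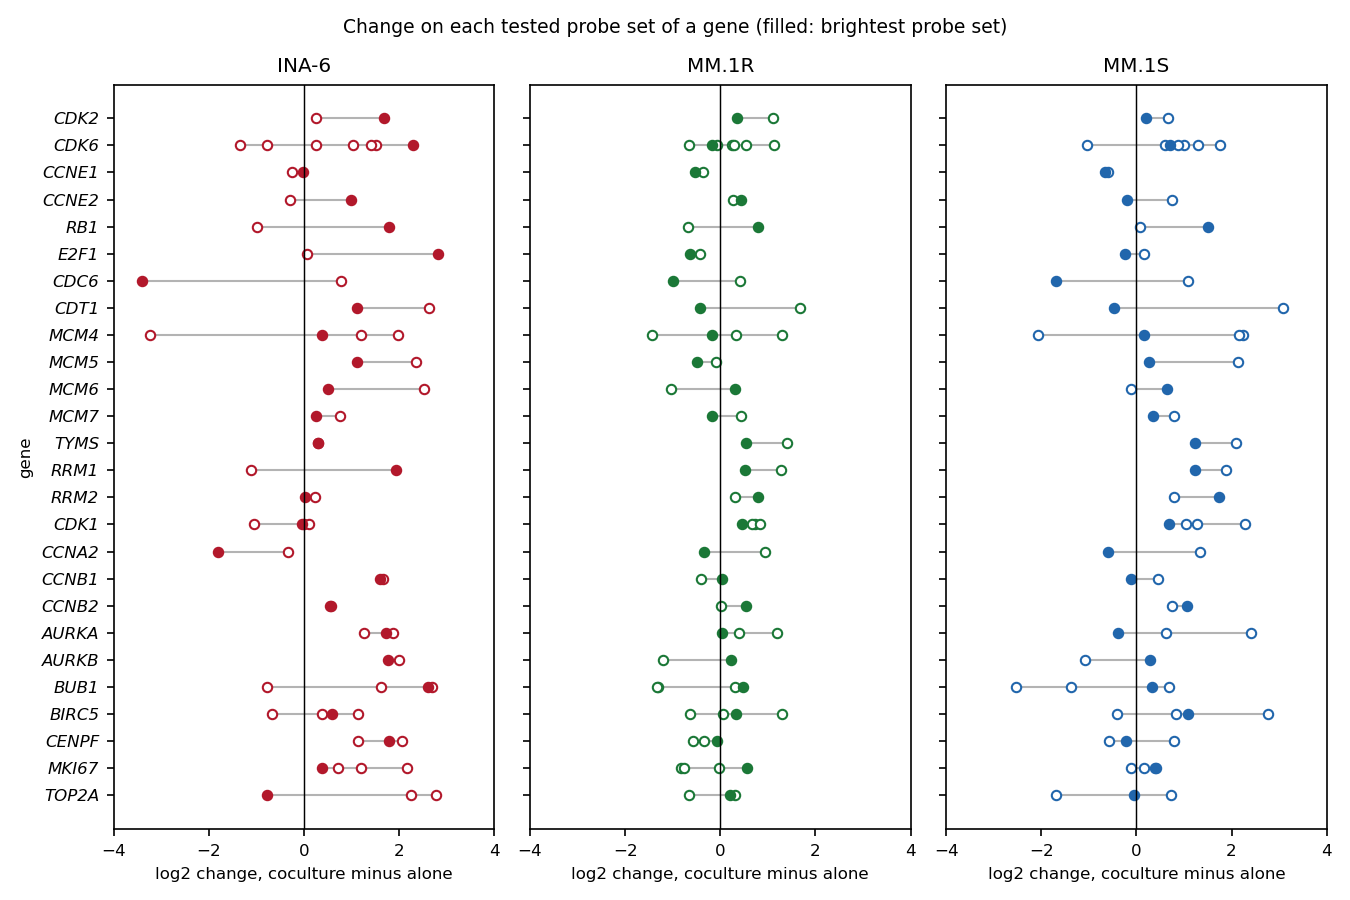
Log2 change (coculture minus alone, horizontal axis) on each tested probe set of the 26 members that have several, in INA-6, MM.1R and MM.1S, with the brightest probe set filled and a grey line joining the probe sets of a gene. CDC6 spans -3.41 to 0.77 in INA-6, and 10 genes cross 0 in INA-6, 14 in MM.1R and 16 in MM.1S.

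Further genes of the same pathways were read from lists. Among 27 other G1 and E2F pathway genes 17 were higher and 1 lower in INA-6, 8 and 0 in MM.1R, and 10 and 1 in MM.1S. For these lists and those below, the shares of all genes were 39.1% higher and 13.1% lower in INA-6, 13.3% and 2.76% in MM.1R, and 23.9% and 8.33% in MM.1S. CDK7, the kinase that activates other CDKs, passed the common test with 2.16 ± 0.45 (log2, SE, n = 3 lines, adjusted p = 0.0496), 1 of 27. CDKN2A, which encodes the CDK4 inhibitor p16, had 1.81 ± 0.56 (adjusted p = 0.129) with 0.41 ± 0.16 in INA-6 (adjusted p = 0.0607), and rose in MM.1R by 3.28 ± 0.16 (adjusted p = 9.7e-06) and in MM.1S by 1.73 ± 0.16 (adjusted p = 0.00015). At the low end of the list stood FBXW7, the ligase that marks cyclin E for destruction, with -0.81 ± 0.49, and the repressive factor E2F4 with -0.07 ± 0.37 (adjusted p = 0.345 and 0.926).

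Of 39 other replication genes 25 were higher and 2 lower in INA-6, 2 and 1 in MM.1R, and 11 and 4 in MM.1S, and 0 passed the common test. PRIM2, the large primase subunit (1.67 ± 0.56), and RFC2, part of the clamp loader (1.65 ± 0.49), had the highest common values (adjusted p = 0.149 and 0.118). CHAF1A, a histone chaperone (-1.03 ± 0.45), and GINS2, a helicase partner (-0.71 ± 0.52), had the lowest (adjusted p = 0.23 and 0.431). Of 54 other mitotic genes tested 35 were higher and 3 lower in INA-6, 5 and 4 in MM.1R, and 14 and 8 in MM.1S, and 0 passed the common test. ASPM, a spindle pole protein, had the lowest common value of the list, -1.72 ± 0.38 (adjusted p = 0.0595), and fell in each line, with -2.07 ± 0.13 in INA-6, -1.37 ± 0.13 in MM.1R and -1.71 ± 0.13 in MM.1S (adjusted p = 1.68e-05, 0.00038 and 6.83e-05). CENPI, a centromere protein, had -1.27 ± 0.51 (adjusted p = 0.202). UBE2S, a ubiquitin-conjugating enzyme of the anaphase-promoting complex, had 1.66 ± 0.67 and DLGAP5, a spindle protein, 1.49 ± 0.39 (adjusted p = 0.2 and 0.0895).

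CDKN1A is also a target of p53, so other p53 targets were read beside it. Of 16 tested among 20 listed, 11 were higher and 1 lower in INA-6, 3 and 0 in MM.1R, and 7 and 1 in MM.1S, and 0 passed the common test. Their median common change was 1.21, against 0.265 for all genes. BAX, a promoter of apoptosis, had 2.21 ± 0.54 and TP53INP1, a stress protein, 2.08 ± 0.44 (adjusted p = 0.0723 and 0.0512). FAS, a death receptor, had -1.38 ± 0.53 and SESN2, a stress-induced sestrin, 0.10 ± 0.46 (adjusted p = 0.188 and 0.906). TP53INP1 rose in each line, by 1.23 ± 0.20 in INA-6, 2.19 ± 0.20 in MM.1R and 2.82 ± 0.20 in MM.1S (adjusted p = 0.00133, 0.00027 and 4.83e-05). The stromal marker sums given above moved with these lists too.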

How the data were processed

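Gene expression was measured in 3 myeloma lines on 12 arrays, 2 technical duplicates in each of 6 groups. The authors deposited probe set intensity values on a linear scale, which per the submitters' processing notes came from MAS5, while the series' design text names another program, so the source of the values was not settled. Besides control probe sets, 1 probe set with a missing intensity value was left out, and the scale was kept as deposited.

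Values were taken as log2(intensity + 5) and tested with limma 3.58.1 in R 4.3.3 (lmFit and eBayes, two-sided, Benjamini-Hochberg over all genes tested, threshold 0.05). Of 54612 probe sets, 35667 lay above their own array's median on at least 2 arrays, and each of 15053 genes was read at its brightest tested probe set. The common test used 6 duplicate averages with the line as a block, and the tests within and between lines used 12 arrays with a mean per group. Arrays give no counts, so their number limits the precision. On simulated data with 15053 genes the common fit recovered 56.7% of genes changed by 2 and 0% of those changed by 1 (log2), with 0 false calls. In INA-6 the share for changes of 2 was 64.2%, in MM.1R 62.7% and in MM.1S 61.2%. The simulation gave each changed gene the same change in all lines, with noise pooled over the groups. In the measured data the changes differed between lines and INA-6 alone was noisier. These shares and false calls therefore do not measure how the fits performed on the measured data.

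The members and lists were chosen with earlier results of these data known. Values of every array are given for the CDK inhibitors and, in each class, for the 3 members with the largest common change and the 2 each with the largest INA-6 difference in cells alone and in the effect of coculture. Of every other list the 2 highest and 2 lowest common changes are named. The array values of RRM2 and the values per line of CDKN2A, ASPM and TP53INP1 were chosen after their values were seen. Replicate numbers were checked as pairs over the 6 groups. Of 15 pairs of groups 6 had a correlation of duplicate deviations over 0.1 (range -0.529 to 0.581). Whether arrays of the same number share more than a name was not tested. Alternatives covered the pseudocount, scaling, the filter on dim probe sets, the choice of probe set, single arrays, the set of lines and a replicate block. Control probe sets and probe sets with no symbol or several symbols were left out. Some genes of the other lists are not reported here.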

Additional observations from a re-analysis of the deposited data

Results flagged for a closer look

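The effect of coculture differed between INA-6 and the mean of the MM.1 lines, by the interaction term of the limma fit, for 8 of the members whose array values are given. Some of these members were picked for large values of this same effect, so the 8 are no result about the class. Of all 39 members 18 were called, against 39.2% of all genes. On the log2 scale (INA-6 minus the MM.1 mean) the difference was 3.25 for E2F1, 2.95 for CDKN1B, 2.64 for CDKN1A, 2.20 for BUB1, 1.99 for CENPE and 1.22 for MCM5. It was -2.07 for CDC6 and -1.76 for CDK4. The other probe sets of E2F1 and CDC6 gave 0.17 and 0.02, and neither passed (adjusted p over all probe sets = 0.711 and 0.947). The INA-6 alone arrays that enter these values had duplicates further apart than the other groups. The 3′ over 5′ signal ratio of ACTB was higher after coculture in INA-6 and lower after coculture in the MM.1 lines. The part of either in these differences was not tested.

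The effect of coculture on PLK1 differed by -1.64 (log2) between MM.1R and MM.1S. This limma call was not kept in 14 of 22 alternative settings. Among them were median centring, no filter on dim probe sets and the replicate block (adjusted p = 0.079, 0.0635 and 0.0716). The coculture groups of both lines lay near each other (214 and 194 in MM.1R, 266 and 253 in MM.1S), while the alone groups read 119 and 93.2 in MM.1R and 41.7 and 38.4 in MM.1S.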

How the results depend on the processing

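Over the log2 changes of the members whose array values are given, apart from RRM2, 2380 values kept their direction and their side of the threshold. Of the rest 63 lost the call, 130 gained one and 37 changed sign. Leaving out an array of a group outside a comparison cannot change its log2 value. The direction of such values was fixed in advance, so the tally is no measure of how stable the directions are. The cause was not tested where none is named. The count of members called in common was 9 without INA-6 (8 higher), 12 with a replicate block and 23 with 12 unaveraged arrays, which count duplicates as replicates. Of all 15053 genes 3659 were called without INA-6, 3763 with the block and 5084 with unaveraged arrays, against 510 in the main fit. In MM.1R the count was 13 under quantile normalization and 25 without INA-6, and 2 to 26 without single arrays. The count in MM.1S was 27 without INA-6 and 11 to 29 without single arrays, and in INA-6 it was 22 to 36. For the effect in INA-6 minus the MM.1 mean it was 14 to 31. For the effect in MM.1R minus MM.1S it was 1 with a pseudocount of 1, 5 with a pseudocount of 32, 0 with arrays centred on their medians, 0 with no filter, 1 with the mean of probe sets, 0 with a fit over all probe sets, 11 without INA-6, 0 with the replicate block and 0 to 18 without single arrays. In cells alone it was 22 to 33 for INA-6 minus the MM.1 mean, and 19 without INA-6 and 0 to 20 without single arrays for MM.1R minus MM.1S. With the replicate block the other counts were 26 in INA-6, 7 in MM.1R, 18 in MM.1S, 18 for the INA-6 effect, and 26 and 6 for the levels in cells alone. Without INA-6 the calls over all 15053 genes were 5134 in MM.1R (2417 with INA-6) and 7582 in MM.1S (4858 with INA-6). They were 2479 for the MM.1R minus MM.1S effect (370 with INA-6) and 4042 for that difference in cells alone (1446 with INA-6). For the MM.1R minus MM.1S effect 263 genes were called with a pseudocount of 1, 976 with 32 and 1 with median centring. The calls were 174 with the mean of probe sets, 53 with a fit over all probe sets and 0 with the replicate block. With no filter 37 of 19775 genes were called. In MM.1R 2455 genes were called under quantile normalization. Leaving out single arrays also moved the calls over all genes.

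Signs changed as follows (log2). Under quantile normalization the common change was -0.089 for MCM5 and -0.31 for CDT1. In INA-6 it was -0.28 for CDK4, in MM.1R -0.074 for CDKN1B, and in MM.1S -0.13 for CDKN1B, -0.14 for MCM5, -0.10 for CENPE and -0.087 for BUB1. The MM.1R minus MM.1S effect of CDKN1B was 0.055. In cells alone INA-6 minus the MM.1 mean was 0.12 for RB1 and 0.28 for TPX2, and MM.1R minus MM.1S was -0.042 for CDKN1B. With arrays centred on their medians the MM.1R minus MM.1S effect was -0.018 for CDKN1A and -0.064 for CDT1, and the difference in cells alone was 0.040 for BUB1. With the mean of probe sets, CDT1 was 0.63 in MM.1R and 1.31 in MM.1S, with an MM.1R minus MM.1S effect of -0.68 and a difference in cells alone of 0.62. BUB1 was -0.46 in MM.1R and -0.72 in MM.1S. The INA-6 effect was -0.036 for RB1 and -0.82 for RRM1, and RB1 in INA-6 alone minus the MM.1 mean was 0.31. Without INA-6 the common change was -0.44 for E2F1, -0.12 for MCM5 and -0.45 for CDT1.

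Over the settings that left out single arrays the common change of CDT1 ran between -0.23 and 0.38 and CDK4 in INA-6 between -0.12 and 0.34. The INA-6 effect on RB1 ran between -0.042 and 1.29, and INA-6 alone minus the MM.1 mean between -1.08 and 0.25 for RB1 and between -1.35 and 0.47 for CDT1. In these 5 results the sign changed without replicate 2 of INA-6 alone. The MM.1R minus MM.1S effect ran between -0.024 and 0.19 for CDKN1A, between -0.19 and 0.017 for CDKN1B and between -0.007 and 0.075 for CDT1. The difference in cells alone ran between -0.15 and 0.010 for BUB1. Here the sign changed without an MM.1R array, and for CDKN1B without replicate 2 of MM.1R alone (0.009) or replicate 1 of MM.1R coculture. Signal near the array medians limits what dim probe sets can show.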
